A study of Homo sapiens with 60 samples.

Results

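The airway mucins described here were 8 genes, MUC1, MUC4, MUC5AC, MUC5B, MUC13, MUC16, MUC20 and MUC21, of the 19712 genes in the deposited tables, taken by name and followed across every group of the study. Poly-A RNA was sequenced from 4 human non-small cell lung cancer lines with EGFR mutations, PC9, HCC827, H1975 (NCI-H1975) and HCC2935, which are established lung adenocarcinoma lines grown as monolayers. Each line had 5 arms of 3 biological replicates, giving 20 groups and 60 libraries. Parental cells kept without drug for 21 days then received the vehicle DMSO for 24 h (DMSO) or 500 nM osimertinib for 24 h (acute osimertinib). Osimertinib is a covalent inhibitor of mutant EGFR. Cells held in 500 nM osimertinib for 21 days were harvested as drug tolerant persisters (DTP), after 24 h without drug (short washout), or after the drug-free time at which growth resumed (long washout), which was 7 days in PC9, 3 days in H1975, 4 days in HCC827 and 10 days in HCC2935. The DTP and washout arms are therefore cells that survived the drug, and the length of the long washout differed between lines, so that time off drug and line cannot be told apart there.

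Mucins are large glycoproteins whose serine- and threonine-rich repeats carry dense O-linked glycans. They fall into the gel-forming mucins, which are secreted as disulphide-linked polymers and give mucus its body, and the membrane mucins, which are anchored in the apical surface of epithelial cells, can be shed from it and carry short cytoplasmic tails. In airways MUC5AC is the mucin of surface goblet cells and MUC5B that of submucosal glands and distal secretory cells, whereas MUC1, MUC4, MUC16 and MUC20 coat the surface epithelium. Several membrane mucins are known in adenocarcinoma as tumour antigens, MUC16 as the source of CA125 and MUC1 as that of CA15-3. Of the 8 genes, 6 encode membrane mucins (MUC1, MUC4, MUC13, MUC16, MUC20, MUC21) and 2 encode gel-forming mucins (MUC5AC, MUC5B).

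The feature that unites these genes is the tandem repeat, shown here for 6 of them as the most frequent unit of the longest GENCODE coding transcript (GRCh38, coding strand, first exact copy at the position given). Capitals mark serine and threonine codons, the sites at which O-glycans are attached. The units differ in length and letters between genes, and in each of them serine and threonine codons recur.
MUC1, chr1:155191820-155191879, minus strand, exon 2 of 11, 60 bases, 19 exact copies: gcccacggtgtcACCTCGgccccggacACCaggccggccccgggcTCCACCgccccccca
MUC4, chr3:195788034-195788081, minus strand, exon 2 of 25, 48 bases, 14 exact copies: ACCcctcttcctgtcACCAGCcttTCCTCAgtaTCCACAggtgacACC
MUC20, chr3:195725150-195725206, plus strand, exon 2 of 4, 57 bases, 10 exact copies: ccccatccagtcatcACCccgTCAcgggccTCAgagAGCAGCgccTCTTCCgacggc
MUC21, chr6:30986512-30986556, plus strand, exon 2 of 3, 45 bases, 5 exact copies: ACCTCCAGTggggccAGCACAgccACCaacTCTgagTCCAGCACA
MUC5AC, chr11:1185244-1185267, plus strand, exon 31 of 49, 24 bases, 15 exact copies: gctcctACAACCAGCACAACCTCT
MUC5B, chr11:1243190-1243276, plus strand, exon 31 of 49, 87 bases, 5 exact copies: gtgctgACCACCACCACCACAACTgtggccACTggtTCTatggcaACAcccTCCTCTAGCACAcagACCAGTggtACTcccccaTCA
Over the whole coding sequence, serine and threonine codons made up 49.3% in MUC21, 38.3% in MUC4, 36.0% in MUC16, 35.2% in MUC5AC, 32.0% in MUC5B, 31.8% in MUC20, 26.2% in MUC1 and 24.0% in MUC13. No unit is printed for MUC13 or MUC16, whose coding sequences matched themselves 1 period on at only 32.5% and 33.8% of bases at the best period between 15 and 480 bases. The MUC16 coding transcript was the longest at 43521 coding bases and the MUC20 and MUC13 transcripts were among the shortest at 2169 and 1536, so levels are compared between genes only in TPM, a transcript level scaled to its length and library, and between groups in CPM, a count scaled to its library. Reads from a repeat can be placed at many positions of one gene, and how the authors' counting shared such reads is not given in the sources used here.

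Library totals ran from 17.7 to 49.1 M estimated counts, with PC9 and H1975 (34.7 to 49.1 M) deeper than HCC827 and HCC2935 (17.7 to 25.6 M). Transcripts of the epithelial keratin KRT8 led the epithelial markers in each line, the T cell gene CD3E was under 1 CPM in all libraries, and SFTPC, which defines alveolar type II cells, was also under 1 CPM in all libraries. Other genes of the same marker lists were present: CD68 led the leukocyte and endothelial markers, which summed to 10.4 to 169 CPM, and NAPSA led the alveolar markers in HCC827, H1975 and HCC2935, with sums of up to 189 CPM in HCC827 and 384 CPM in HCC2935. EGFR, the drug's target, averaged between 235 CPM (H1975, long washout) and 8816 CPM (HCC827, DMSO). Of the 60 libraries, 13 correlated better with a library of another arm of their line than with either of their own replicates. Leaving out each of the 13 in turn kept 53 of 58 mucin calls and added 3, summed over the runs. A call was counted once for each run that it entered, so these are not separate calls. The calls that changed rested on HCC827 DTP replicates 1, 2 and 3, HCC2935 DTP replicate 3, H1975 DTP replicate 2 and HCC2935 long washout replicate 1, and they are named beside the results. PC9 long washout replicate 3 lay closest to PC9 short washout replicate 3 (r = 0.994, against a mean of 0.979 with its own replicates), and PC9 long washout values are given with and without it, although no call changed.

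Under DMSO the 4 lines expressed different mucins. In PC9 the 8 genes summed to only 19.5 ± 7.70 TPM (mean ± SD, n = 3, as for all TPM and CPM means), of which MUC20 made up 52.4%. HCC827 reached 114 ± 53.5 TPM, led by MUC1 (58.5 TPM) and MUC16 (35.6 TPM). H1975 reached 31.6 ± 16.9 TPM, of which MUC1 was 73.3%. HCC2935 had the highest sum, 399 ± 40.8 TPM, with MUC1 at 218 TPM and MUC20 at 154 TPM.

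The membrane mucin MUC1 was at 2.08, 4.72 and 3.15 CPM in the 3 PC9 DMSO libraries, 79.4, 26.6 and 100.4 CPM in HCC827, 45.7, 12.3 and 18.6 CPM in H1975 and 214 (replicate 1), 204 (replicate 2) and 214 (replicate 3) CPM in HCC2935. PC9 lay below and HCC2935 above the libraries of the other lines, while HCC827 and H1975 overlapped. MUC16 ran from 15.4 to 36.7 CPM in PC9, 49.2 to 78.6 in H1975, 52.6 to 101 in HCC2935 and 304 to 553 in HCC827, so that H1975 and HCC2935 overlapped and did not differ beyond their spread (log2 difference -0.17 ± 0.38 SE, edgeR adjusted p = 0.7135). MUC20 was ordered H1975 (1.66 to 1.84 CPM), HCC827 (4.98 to 16.3), PC9 (9.63 to 21.5) and HCC2935 (146 to 178), with HCC827 and PC9 overlapping (log2 difference 0.49 ± 0.37 in favour of PC9, edgeR adjusted p = 0.2475). MUC4 was ordered H1975 (3.97 to 11.8 CPM), HCC827 (5.86 to 29.03), PC9 (23.7 to 48.7) and HCC2935 (47.3 to 55.1).

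The less abundant mucins were each largely a feature of particular lines. MUC13, a membrane mucin best known from the gut, was at 6.13, 4.69 and 5.85 CPM in HCC827 DMSO libraries and at 0 counts in all 3 PC9 DMSO libraries. A count of 0 there allows up to 3 counts per library, or 0.0842 CPM on average, so MUC13 was at least 65.96-fold higher in HCC827 than in PC9, counting error only. MUC21, known from squamous and airway surface epithelium, was at 9.95, 11.9 and 15.8 CPM in HCC2935 and under 0.1 CPM in each DMSO library of the other lines. The goblet cell mucin MUC5AC was at 16.0, 12.3 and 27.3 CPM in HCC2935, under 0.2 CPM in PC9 and H1975, and at 0.363, 0.195 and 2.72 CPM in HCC827. MUC5B was at 28.5, 21.1 and 124 CPM in HCC827 and 21.2, 17.3 and 49.1 CPM in HCC2935, which overlapped, and between 1.08 and 4.65 CPM in the other lines.

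In the fit of all 60 libraries, 37 of the 48 tests of a mucin between lines under DMSO passed an adjusted p of 0.05, against shares of all genes that were nearly as high. The counts were 6 of 8 for PC9 and HCC827 (62.3% of all genes passed), 5 for PC9 and H1975 (63.1%), 6 for PC9 and HCC2935 (67%), 7 for HCC827 and H1975 (56.5%), 7 for HCC827 and HCC2935 (64.3%) and 6 for H1975 and HCC2935 (65.3%). MUC1, for example, was lower in PC9 than in HCC2935 by a log2 difference of -5.97 ± 0.45 SE (edgeR adjusted p = 4.11e-16). Several calls rested on single replicates: without replicate 3 the HCC827 to H1975 difference fell to 0.87 for MUC1, 0.13 for MUC4 and 1.12 for MUC5AC and none of these passed, without replicate 1 that of MUC4 (1.09) and the PC9 to H1975 difference of MUC16 (-0.80) no longer passed, without replicate 1 or 2 that of MUC4 between PC9 and HCC827 (1.32 and 0.62) no longer passed, and MUC13 between PC9 and H1975 was lost without replicate 2 or 3 (-3.16 and -4.68). MUC20 between PC9 and HCC827 passed without replicate 3 (1.12).

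**Figure D1:**
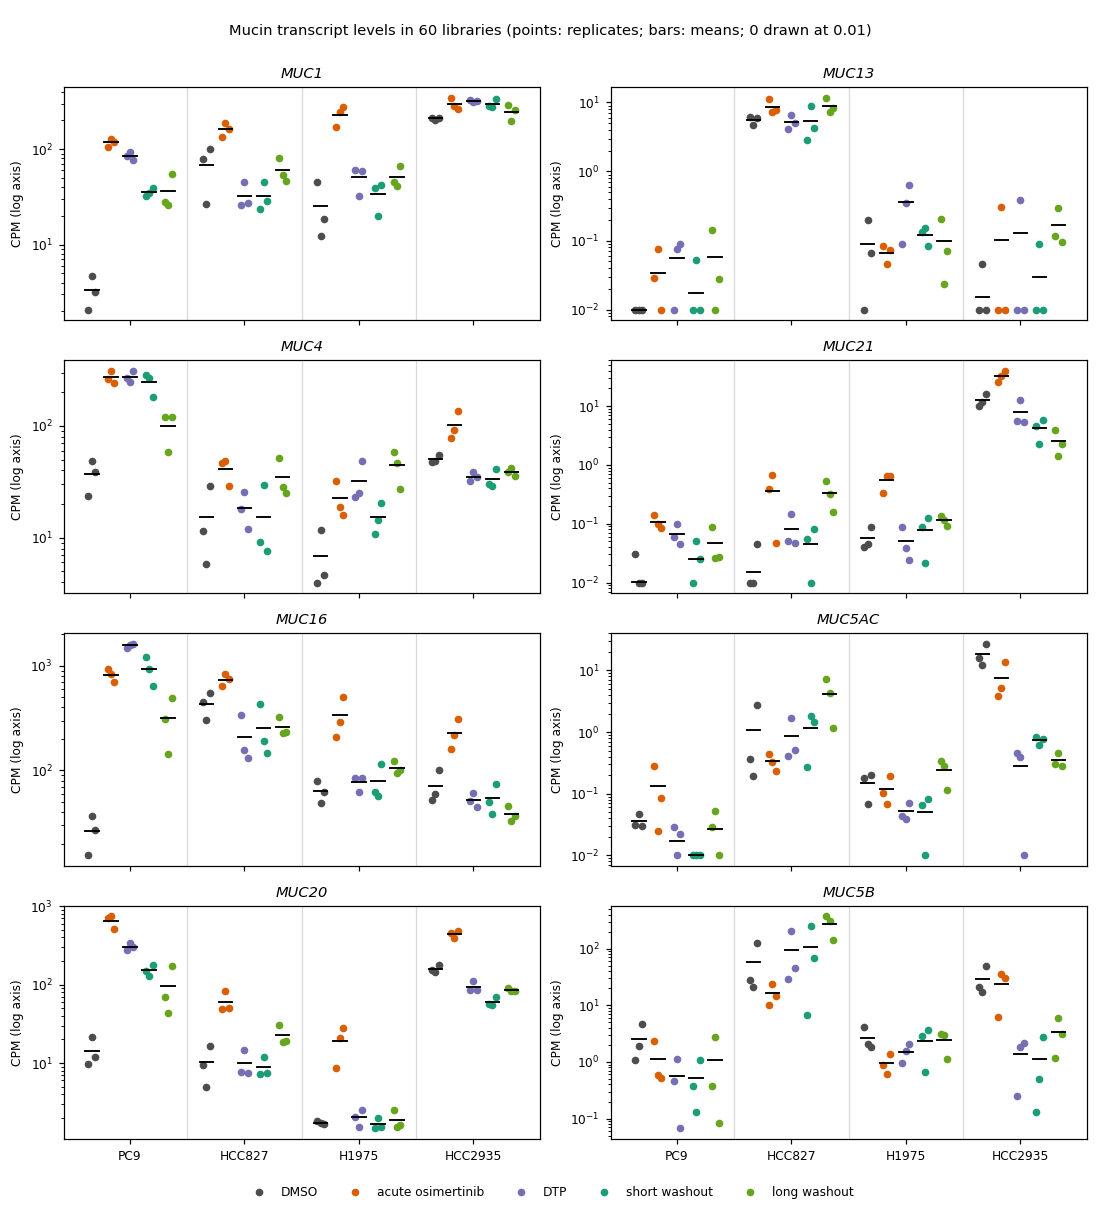
Level of each mucin transcript in each of the 60 libraries, in CPM on a log axis, by cell line and arm, with a bar at the mean of the 3 replicates and libraries at 0 drawn at 0.01. MUC1, MUC16, MUC20 and MUC4 are lowest in PC9 under DMSO compared with the other PC9 arms, MUC13 lies above 1 CPM in HCC827 alone, MUC21 lies above 1 CPM in HCC2935 alone, and MUC5AC falls from 12.3 to 27.3 CPM under DMSO in HCC2935 to under 1 CPM in the DTP and washout arms.

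After 24 h of osimertinib membrane mucins rose in each line, MUC1 and MUC20 in all 4, and neither gel-forming mucin rose in any test. Of 25 tests of a mucin in a line (genes with too few counts were left out), 18 passed, 16 of them higher and 2 lower. By line this was 4 of 5 in PC9 (66.2% of all genes passed), 2 of 7 in HCC827 (39%), 6 of 6 in H1975 (51.6%) and 6 of 7 in HCC2935 (47.1%), so the HCC827 share was below that of all genes. Among the called mucins, the 3 treated and 3 DMSO libraries overlapped for MUC5AC in HCC2935 alone. Overlap was not counted over all genes, so its absence does not set the mucins apart. The shares of all genes passed are the background for each count of calls. With so many genes changed, a call alone does not set a mucin apart, and the sizes below are the measurement.

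MUC1 rose in each of the 4 lines. In PC9 it was at 106.6, 128.5 and 120.3 CPM after acute osimertinib against 2.08, 4.72 and 3.15 CPM under DMSO, 35.5-fold higher (log2 5.15 ± 0.31 SE, edgeR adjusted p = 2.82e-08). In H1975 the treated libraries were at 170 (replicate 1), 243 (replicate 2) and 278 (replicate 3) CPM, 9.06-fold above DMSO (log2 3.18 ± 0.44, edgeR adjusted p = 3.99e-05). In HCC827 they were at 134.5, 188 and 162 CPM, 2.31-fold above DMSO (log2 1.21 ± 0.39, edgeR adjusted p = 0.02345), and this call was lost without DMSO replicate 2 (0.82) or acute replicate 2 (1.11). HCC2935, which had the highest DMSO level, had the smallest rise, to 345 (replicate 1), 284 (replicate 2) and 262 (replicate 3) CPM, 1.44-fold (log2 0.53 ± 0.13, edgeR adjusted p = 0.0029), a call that was lost when all 60 libraries shared 1 estimate of the spread. Treated and untreated libraries of MUC1 did not overlap in any line.

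MUC20, a small membrane mucin reported to bind the receptor MET, had the highest fold change among the mucins tested in PC9, HCC827 and H1975 (MUC21, at under 1 CPM in HCC827, was not tested there). In PC9 it went from 9.63, 21.5 and 12.1 CPM to 707.5, 744 and 511.5 CPM, 45.5-fold (log2 5.51 ± 0.46, edgeR adjusted p = 2.16e-07). In H1975 it went from 1.84, 1.73 and 1.66 CPM to 8.76, 21.1 and 27.7 CPM, 11.1-fold (log2 3.47 ± 0.36, edgeR adjusted p = 4.03e-06). In HCC827 it went from 9.50, 4.98 and 16.3 CPM to 48.8, 82.7 and 50.5 CPM, 5.81-fold (log2 2.54 ± 0.40, edgeR adjusted p = 0.000199). In HCC2935 it went from 153 (replicate 1), 146 (replicate 2) and 178 (replicate 3) CPM to 463, 392 and 487 CPM, 2.88-fold (log2 1.53 ± 0.13, edgeR adjusted p = 1.91e-07). The treated libraries lay above all DMSO libraries in each line. MUC20 overlaps MUC20-OT1 on the same strand and has a pseudogene, MUC20P1, so some of its reads could belong to either.

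MUC16, the largest of the membrane mucins, rose in 3 lines. PC9 libraries went from 15.4, 36.7 and 27.2 CPM to 937.5, 841 and 694 CPM, 31.4-fold (log2 4.97 ± 0.43, edgeR adjusted p = 2.63e-07). H1975 libraries went from 78.6, 49.2 and 62.3 CPM to 207, 294 and 509 CPM, 5.35-fold (log2 2.42 ± 0.33, edgeR adjusted p = 2.96e-05), and HCC2935 libraries from 52.6, 60.2 and 101 CPM to 159, 220 (219.7) and 307 CPM, 3.28-fold (log2 1.72 ± 0.28, edgeR adjusted p = 0.000109). HCC827, where MUC16 was most abundant to begin with, had 639, 834 and 742 CPM against 450.5, 304 and 553 CPM. Its groups did not overlap but the difference did not pass (log2 0.74 ± 0.38, edgeR adjusted p = 0.14). It passed with only these arms fitted, without (0.74) or with (0.77) the replicate block.

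MUC4, a membrane mucin known to bind ERBB2, rose 7.39-fold in PC9 (from 23.7, 48.7 and 38.9 CPM to 261, 312 and 243 CPM, log2 2.89 ± 0.29, edgeR adjusted p = 9.64e-07), 3.33-fold in H1975 (to 32.3, 19.0 and 16.1 CPM, edgeR adjusted p = 0.00409) and 2.09-fold in HCC2935 (to 78.7, 92.1 and 136 CPM, edgeR adjusted p = 0.000138). The treated libraries were the higher ones without overlap in these lines. In HCC827 the libraries were at 46.3, 48.8 and 29.2 CPM against 11.4, 5.86 and 29.03 CPM (log2 1.40 ± 0.56, edgeR adjusted p = 0.0619). This difference passed without DMSO replicate 3 (2.28), with limma (1.74), with only these arms fitted (1.40) and with all 60 libraries fitted together (1.42). MUC21 rose in both lines in which it was tested, 2.69-fold in HCC2935 (26.1, 32.7 and 40.1 CPM against 9.95, 11.9 and 15.8, log2 1.43 ± 0.36, edgeR adjusted p = 0.00411) and 9.17-fold in H1975, where even the treated libraries stayed at 0.331, 0.659 and 0.651 CPM. MUC13 was tested in HCC827 alone and did not pass (log2 0.63 ± 0.35, edgeR adjusted p = 0.168).

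The gel-forming mucins went the other way wherever they passed. MUC5AC in HCC2935 was at 3.91, 5.20 and 13.6 CPM after acute osimertinib against 16.0, 12.3 and 27.3 CPM under DMSO, a fall with 1 treated library inside the DMSO range (log2 -1.25 ± 0.45, edgeR adjusted p = 0.0326). MUC5B fell in H1975 from 4.11, 2.11 and 1.86 CPM to 0.868, 0.614 and 1.40 CPM (log2 -1.48 ± 0.57, edgeR adjusted p = 0.0421). Both calls were weak: that of MUC5AC was lost without DMSO replicate 3 (-0.86), acute replicate 1 (-0.94) or acute replicate 2 (-1.05), that of MUC5B without DMSO replicate 1 (-1.04), acute replicate 1 (-1.41) or acute replicate 2 (-1.25), and both were lost with limma on the deposited log2 TPM and with all 60 libraries fitted together. MUC5B did not pass in PC9, HCC827 or HCC2935, where its log2 fold changes were -1.14 ± 1.05, -1.86 ± 1.01 and -0.24 ± 0.69. That in HCC827 passed with only these arms fitted and no replicate block (-1.87).

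**Figure D2:**
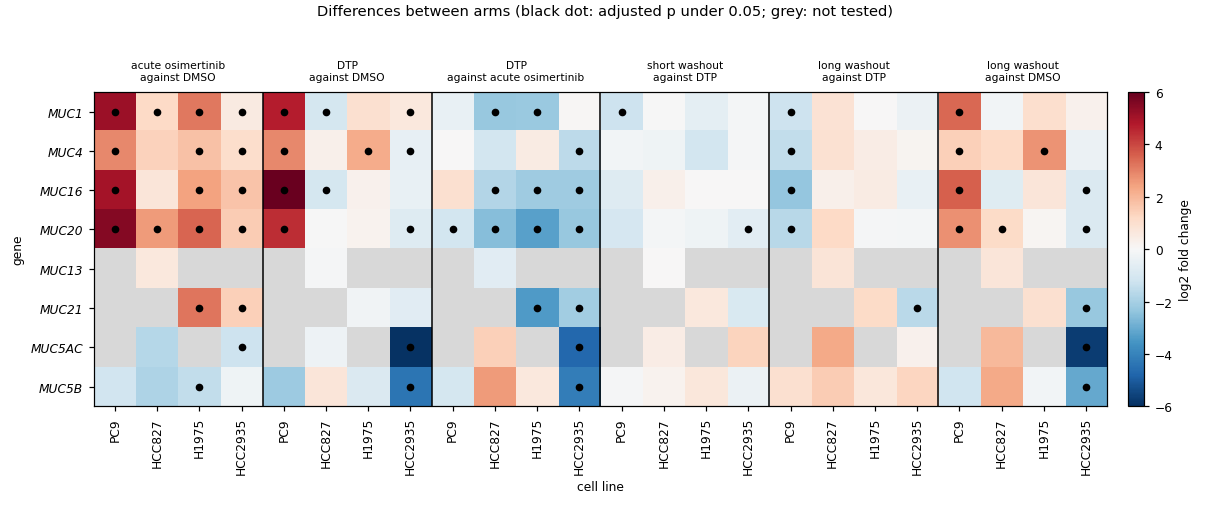
Log2 fold change of each mucin in 6 comparisons between arms (colour, red higher and blue lower in the first-named arm) and 4 cell lines, with a black dot where the edgeR adjusted p was under 0.05 and grey where a gene had too few counts to be tested. Acute osimertinib gave 16 higher and 2 lower calls, DTP against acute osimertinib gave 14 calls, all lower, and short washout against DTP gave 2.

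In persisters the lines parted. Of the 25 tests of DTP against DMSO, 12 passed, 6 higher and 6 lower: 4 of 5 in PC9, all higher (69.2% of all genes passed), 2 of 7 in HCC827, both lower (43.4%), 1 of 6 in H1975, higher (51.7%), and 5 of 7 in HCC2935, of which 4 were lower (52.8%). In PC9 the 4 membrane mucins that rose at 24 h were also above DMSO at 21 days, whereas of those that rose at 24 h in the other lines only MUC4 in H1975 and MUC1 in HCC2935 passed as higher. The comparisons of acute osimertinib and of DTP with DMSO share their DMSO libraries, so the values are given side by side and not as independent results. A lower level in these bulk samples could be fewer expressing cells or less RNA in each, which cannot be told apart.

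In PC9 persisters MUC16 was at 1474, 1598 and 1634 CPM, its highest level in the study, 60.1-fold above DMSO (log2 5.91 ± 0.45, edgeR adjusted p = 1.94e-07). MUC1 was at 85.1, 93.7 and 77.7 CPM, 25.8-fold above DMSO (log2 4.69 ± 0.31, edgeR adjusted p = 1.05e-07). MUC20 was at 275, 342 and 301 CPM, 21.4-fold (log2 4.42 ± 0.44, edgeR adjusted p = 1.08e-06). MUC4 was at 266.5, 247.5 and 309 CPM, 7.49-fold (log2 2.91 ± 0.29, edgeR adjusted p = 1.13e-06). For none of these 4 genes did the 3 DTP libraries overlap with DMSO. Against acute osimertinib, only MUC20 passed in PC9, lower by a log2 difference of -1.09 ± 0.38 (edgeR adjusted p = 0.0398, 33.9% of all genes passed), and this call was lost without acute replicate 1 (-1.03) or 2 (-0.99), without any 1 of the 3 DTP replicates (-1.02, -1.17 and -1.06), with DESeq2 and with limma. MUC16 was higher in the mean of PC9 persisters than after 24 h without passing (log2 0.94 ± 0.36, edgeR adjusted p = 0.0586). The groups did not overlap, and the difference passed with limma (1.22) and with only these arms fitted, without (0.95) or with (0.96) the replicate block. MUC1 was lower than after 24 h without overlap and did not pass (log2 -0.46 ± 0.25, edgeR adjusted p = 0.177). It passed with only these arms fitted, without or with the replicate block (-0.45 each).

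In H1975 the 24 h levels were not held. MUC1 was at 60.8, 32.5 and 58.7 CPM in persisters (log2 0.97 ± 0.42 against DMSO, edgeR adjusted p = 0.0642, passing without DMSO replicate 1 at 1.69 or DTP replicate 2 at 1.20, and also with limma, with the replicate block and with all 60 libraries fitted together), MUC16 at 83.9, 62.5 and 84.3 CPM (log2 0.27 ± 0.31) and MUC20 at 2.03, 1.51 and 2.54 CPM (log2 0.20 ± 0.35). Their ranges overlapped with those of DMSO. Against acute osimertinib, 4 of 6 mucins fell (37.2% of all genes passed): MUC21 by log2 -3.39 ± 0.60, MUC20 by -3.27 ± 0.36, MUC1 by -2.21 ± 0.43 and MUC16 by -2.15 ± 0.32, the highest of their edgeR adjusted p values being 0.00127. MUC4 departed from the others in H1975: at 23.2, 25.1 and 49.0 CPM in persisters it was 4.75-fold above DMSO (log2 2.25 ± 0.44, edgeR adjusted p = 0.000676) and did not differ from acute osimertinib (log2 0.51 ± 0.42, edgeR adjusted p = 0.358).

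HCC827 persisters were below DMSO for MUC16 (341, 157 and 131 CPM against 450.5, 304 and 553, log2 -1.03 ± 0.39, edgeR adjusted p = 0.0417) and MUC1 (25.8, 44.8 and 27.4 CPM against 79.4, 26.6 and 100.4, log2 -1.05 ± 0.39, edgeR adjusted p = 0.0418). The groups overlapped for both genes. The MUC1 call was lost without DMSO replicate 1 (-0.94) or 3 (-0.69) or DTP replicate 1 (-0.91) or 3 (-0.97), that of MUC16 without DMSO replicate 1 (-1.01) or 3 (-0.84) or DTP replicate 2 (-0.87) or 3 (-0.81), with limma losing the former and DESeq2 the latter. Against acute osimertinib 3 of 7 mucins passed, each lower and without overlap (29.4% of all genes passed). MUC20 fell by log2 -2.57 ± 0.40, MUC1 by -2.26 ± 0.40 and MUC16 by -1.78 ± 0.39 (edgeR adjusted p = 0.000367, 0.0009 and 0.00378). MUC4 (log2 -1.12 ± 0.56, edgeR adjusted p = 0.149) and MUC13 (-0.69 ± 0.35, 0.151) were also lower without overlap and did not pass. MUC4 passed with only these arms fitted, without (-1.16) or with (-1.19) the replicate block, and with all 60 libraries fitted together (-1.16). MUC20 in HCC827 persisters, at 7.63, 14.6 and 7.49 CPM, lay within the DMSO range of 4.98 to 16.3 CPM. MUC5B varied most between the replicates of this line, with 28.8, 207 and 45.1 CPM in persisters and 10.1, 24.0 and 14.5 CPM after acute osimertinib, and this difference did not pass (log2 2.58 ± 1.03, edgeR adjusted p = 0.0732) although it did without DTP replicate 1 (3.01) and with DESeq2.

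In HCC2935 persisters the gel-forming mucins were nearly lost. MUC5AC went from 16.0, 12.3 and 27.3 CPM under DMSO to 0.461, 0.389 and 0 CPM (log2 -5.95 ± 0.62, edgeR adjusted p = 1.11e-06). MUC5B went from 21.2, 17.3 and 49.1 CPM to 0.251, 1.83 and 2.12 CPM (log2 -4.37 ± 0.85, edgeR adjusted p = 0.000434). Neither gene overlapped between groups, and both were also below acute osimertinib, by log2 -4.69 ± 0.61 and -4.14 ± 0.85. MUC20 fell to 85.6, 110.5 and 84.7 CPM (log2 -0.75 ± 0.13 against DMSO, edgeR adjusted p = 0.000117) and MUC4 to 32.2, 38.6 and 35.01 CPM (log2 -0.50 ± 0.18, edgeR adjusted p = 0.0269), the MUC4 call being lost without DMSO replicate 3 (-0.42), DTP replicate 1 (-0.43) or DTP replicate 3 (-0.49). MUC1 alone rose, to 326, 313 and 323 CPM, 1.54-fold (log2 0.62 ± 0.13, edgeR adjusted p = 0.000688). These last 3 calls were lost when all 60 libraries were fitted together, where the spread was estimated over all lines. MUC21, at 5.57, 12.5 and 5.46 CPM, did not pass against DMSO (log2 -0.66 ± 0.37, edgeR adjusted p = 0.1455) but did without DTP replicate 2 (-1.17). Against acute osimertinib 6 of 7 mucins fell in HCC2935 (44.7% of all genes passed), all but MUC1 (log2 0.09 ± 0.13).

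Over the 4 lines, DTP against acute osimertinib gave 14 calls of 25 tests, where 29.4% to 44.7% of all genes passed by line. Each of these calls was lower in DTP. Their groups did not overlap, which was not counted over all genes.

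Few mucins passed between DTP and 24 h off drug. In PC9, MUC1 went from 85.1, 93.7 and 77.7 CPM to 32.4, 34.7 and 39.5 CPM, the one call of 5 (5.92% of all genes passed, log2 -1.27 ± 0.26, edgeR adjusted p = 0.0162), and it was lost without DTP replicate 2 (-1.19) or short washout replicate 1 (-1.20) or 2 (-1.22). MUC20 and MUC16 were also lower in PC9 without overlap, with means 0.4997 and 0.5916 times those of DTP. Neither passed (edgeR adjusted p = 0.123 and 0.207). Both passed with only these arms fitted, without (log2 -1.01 and -0.77) or with (-1.01 and -0.81) the replicate block. The groups overlapped for MUC4 and MUC5B. In HCC2935, MUC20 went from 85.6, 110.5 and 84.7 CPM to 55.9, 55.6 and 69.8 CPM, the one call of 7 (3.14% of all genes passed, log2 -0.63 ± 0.13, edgeR adjusted p = 0.0132), and it was lost without DTP replicate 2 (-0.49) or short washout replicate 1 or 2 (-0.58 each). In HCC827 no mucin passed with edgeR, nor did any other gene (0%), with 0 mucins at an unadjusted p under 0.05 and 0 with DESeq2 or limma. In H1975 no mucin passed with edgeR (0.0585% of all genes passed), with MUC4 at an unadjusted p under 0.05 and 0 calls with DESeq2 or limma.

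In H1975 the DTP and short washout libraries with the same replicate number varied together, as they did in HCC827. A fit of these 2 H1975 arms with the replicate number as a block, which was chosen after seeing the data, called 1697 genes (11.6%). The same 2 arms without the block gave 0 genes, the 15 libraries of the line gave 9 genes, and these with the block gave 56 genes and no mucin. Among the 1697 were MUC4 (23.2, 25.1 and 49.0 CPM in DTP against 10.9, 14.3 and 20.5 CPM after 24 h off drug, log2 -1.05, edgeR adjusted p = 0.000478) and MUC1 (60.8, 32.5 and 58.7 CPM against 39.5, 19.8 and 42.2 CPM, log2 -0.59, edgeR adjusted p = 0.00164). Over the same 2 arms without the block these log2 differences were -1.08 ± 0.32 and -0.57 ± 0.31 (edgeR adjusted p = 0.2497 and 0.458), in the fit of 15 libraries they were -1.08 ± 0.42 and -0.57 ± 0.41 (edgeR adjusted p = 0.273 and 0.587), and over all alternatives the adjusted p ran from 0.000478 to 0.638 for MUC4 and from 0.00164 to 0.92 for MUC1. In HCC827 the same blocked fit called 2 genes and no mucin.

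After the long washout PC9 mucins had come down without reaching DMSO levels. MUC16 was at 310, 143.5 and 497.5 CPM, MUC20 at 70.6, 43.5 and 173 CPM, MUC1 at 27.8, 25.8 and 55.1 CPM and MUC4 at 121, 58.5 and 120 (119.9) CPM. All 4 were below DTP (37.2% of all genes passed), by log2 -2.32 ± 0.38, -1.69 ± 0.39, -1.25 ± 0.26 and -1.47 ± 0.28 in that order, and all 4 were above DMSO (44.9%), by 3.59 ± 0.40, 2.74 ± 0.41, 3.44 ± 0.30 and 1.44 ± 0.28, the highest edgeR adjusted p being 0.00496. Replicate 3, the library that lay closest to short washout, was the highest of the 3 for MUC16, MUC20 and MUC1. Without it the log2 differences from DTP were -2.77, -2.40, -1.66 and -1.59 and those from DMSO were 3.10, 1.98, 3.00 (2.995) and 1.28, and the 8 calls held.

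In the other lines few mucins passed between long washout and DTP. In HCC827 the mean was 2.295-fold higher for MUC20, 1.83-fold for MUC1 and 1.725-fold for MUC13, each without overlap, and 4.825-fold for MUC5AC and 2.91-fold for MUC5B with overlap. No mucin passed in HCC827 with edgeR (0% of all genes), where MUC1, MUC13, MUC20 and MUC5AC had an unadjusted p under 0.05, or in H1975 (0.0065%), where none did, and DESeq2 and limma called 0 in both. In HCC2935, MUC21 fell further, to 3.86, 1.44 and 2.29 CPM (log2 -1.63 ± 0.40, edgeR adjusted p = 0.01475, 11.8% of all genes passed), a call lost without long washout replicate 2 (-1.36) or 3 (-1.56) or DTP replicate 2 (-1.11). MUC1 in HCC2935 did not pass (log2 -0.37 ± 0.13, edgeR adjusted p = 0.0696) but did without long washout replicate 1 (-0.50), with the replicate block, with DESeq2 and with limma.

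Set against DMSO, the long washout left 5 mucins of HCC2935 low (43.3% of all genes passed): MUC5AC at 0.308, 0.464 and 0.286 CPM (log2 -5.68 ± 0.61), MUC5B at 1.195, 5.91 and 3.15 CPM (log2 -3.09 ± 0.77), MUC21 (log2 -2.29 ± 0.40), MUC16 (log2 -0.88 ± 0.28) and MUC20 (log2 -0.87 ± 0.13). The highest of their edgeR adjusted p values was 0.0166, for MUC16, which no longer passed without DMSO replicate 3 (-0.54) or long washout replicate 2 (-0.81). In H1975 MUC4 was the one mucin to pass against DMSO (53.3% of all genes passed), at 58.6, 47.0 and 27.5 CPM against 3.97, 11.8 and 4.67 CPM (6.53-fold, log2 2.71 ± 0.45, edgeR adjusted p = 0.000156), without overlap. MUC1 (1.00 ± 0.42) and MUC16 (0.74 ± 0.31) missed the threshold there but passed in other fits. MUC1 did so without DMSO replicate 1 (1.72), with the replicate block (1.09), with limma (1.17) and with 60 libraries fitted together (1.01), and MUC16 without DMSO replicate 1 (0.92), with the block (0.75) and with only the 2 arms fitted (0.72). In HCC827 MUC20 was the one to pass against DMSO (42% of all genes passed), at 30.6, 18.6 and 19.0 CPM against 9.50, 4.98 and 16.3 CPM (2.24-fold, edgeR adjusted p = 0.0268), a call lost without DMSO replicate 1 (1.11) or 2 (0.83) or long washout replicate 1 (0.89). MUC5B reached its own highest mean of the study here, 371, 305 and 144 CPM against 28.5, 21.1 and 124 CPM under DMSO, and did not pass (log2 2.255 ± 0.99, edgeR adjusted p = 0.0823), but did with all 60 libraries fitted together and without DMSO replicate 3 (3.47), as was the case for MUC5AC (1.95 ± 0.91, and 3.90 without it) and MUC4 (1.198 ± 0.56, and 2.03 without it). MUC5B in PC9 passed without long washout replicate 2 (-3.46, against -1.21 ± 1.05 with it), and MUC1 in HCC2935 passed without long washout replicate 2 (0.37, against 0.25 ± 0.13 with it).

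Per unit length, the make-up of the mucin transcripts shifted with the arm as well. In PC9 the sum of the 8 genes was 643 ± 85.9 TPM after acute osimertinib, 71.6% of it MUC20, 520 (519.8) ± 41.1 TPM in persisters, where MUC16 had grown to 26.5%, and 152 ± 97.4 TPM after long washout. In HCC827 the sum was 268 ± 49.6 TPM after acute osimertinib, 71.7 ± 23.6 TPM in persisters and 138 ± 39.2 TPM after long washout, when MUC5B made up 23.7%. H1975 had 255 ± 73.3 TPM after acute osimertinib, 80.9% of it MUC1, and 58.3 ± 15.4 TPM in persisters. HCC2935 had 797 (796.5) ± 83.2 TPM after acute osimertinib, when MUC20 (54.3%) overtook MUC1 (38.2%), and 488 ± 15.03 TPM in persisters, when MUC1 was back at 75.8%. These sums are a description, without a test.

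**Figure D3:**
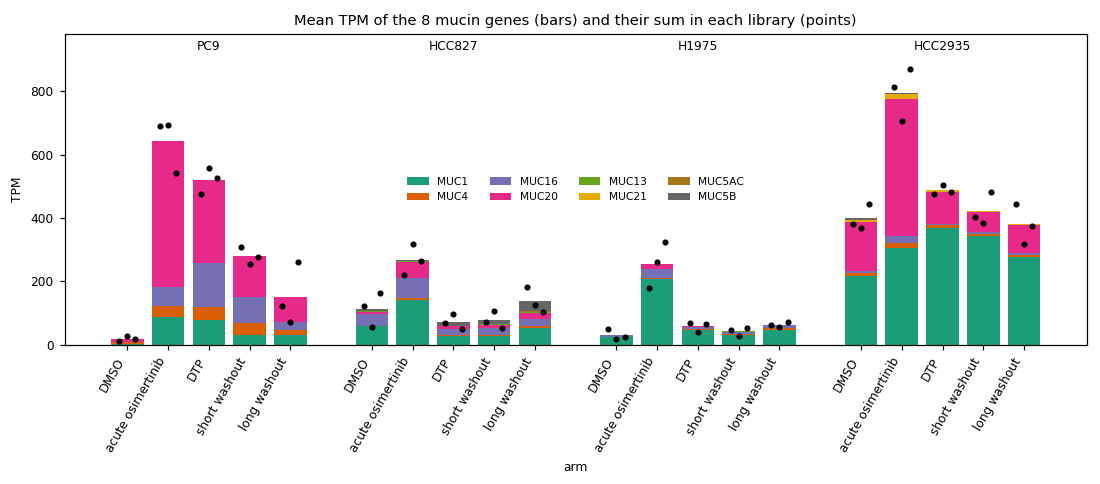
Stacked mean TPM of the 8 mucin genes in the 20 groups (bars, n = 3 libraries a group) with the sum in each library as points. The sum is highest after acute osimertinib in each line, and the bars consist mostly of MUC1, MUC20 and MUC16, with MUC5B visible in HCC827 after long washout.

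Whether an arm's effect differed between lines was tested directly in the fit of 60 libraries. The acute effect differed among the lines for MUC1 (edgeR adjusted p = 5.9e-09, F-test on 3 degrees of freedom), MUC20 (1.2e-07), MUC16 (3.76e-07) and, at the threshold, MUC4 (0.0498), 4 of the 8 mucins against 41.4% of all genes. For each of the 4, PC9 had the highest log2 fold change. The DTP effect differed for MUC16 (edgeR adjusted p = 5.27e-13), MUC20 (4.46e-11), MUC1 (1.04e-10), MUC4 (7.6e-06), MUC5AC (0.000178) and MUC5B (0.0065), 6 of the 8 against 63.9% of all genes. In this fit the DTP log2 fold change of MUC16 was 5.89 in PC9, 0.28 in H1975, -0.44 in HCC2935 and -1.06 in HCC827. That of MUC5AC was -5.98 in HCC2935 and between -1.49 and -0.34 in the others.

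Likeness between patterns was measured as Pearson's r over the 20 group means of log2(CPM + 1) after subtracting each line's mean. MUC1, MUC4, MUC16 and MUC20 went together, with r from 0.71 to 0.89 over their pairs, and MUC5AC went with MUC5B (r = 0.88), its neighbour 21927 bases away on chromosome 11. The groups share lines, arms and depth, so these values describe the data and carry no p. MUC5AC stayed under 1 CPM in PC9 and H1975, MUC21 did outside HCC2935 and MUC13 did outside HCC827. The r values of these genes therefore rest mostly on the remaining lines. Among all genes averaging 1 CPM or more, the closest to MUC16 were ITPKC (an inositol trisphosphate kinase, r = 0.95) and MSLN (mesothelin, the cell surface protein that binds MUC16, r = 0.95). MSLN was at 0 CPM in the 3 PC9 DMSO libraries and at 2.17, 2.07 and 3.10 CPM after acute osimertinib. The closest to MUC1 were B3GALT4 (a glycosyltransferase, r = 0.93) and POU2F3 (the transcription factor of tuft cells, r = 0.92). POU2F3 in PC9 went from 0.217, 0.501 and 0.235 CPM to 14.4 (14.35), 14.98 and 12.6 CPM after acute osimertinib. For MUC20 they were SDCBP2 (a PDZ protein, 0.98) and TRANK1 (0.97), for MUC4 YIPF3 (0.93) and GBP2 (an interferon-induced GTPase, 0.92), for MUC21 WFIKKN1 (0.95) and CLIC6 (0.95), for MUC5AC IGFL2 (0.93) and EDNRA (an endothelin receptor, 0.91), for MUC5B HOXB2 (0.93) and MUC5AC (0.88), and for MUC13 LCN2 (lipocalin-2, 0.81) and FGG (fibrinogen gamma chain, 0.76).

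**Figure D4:**
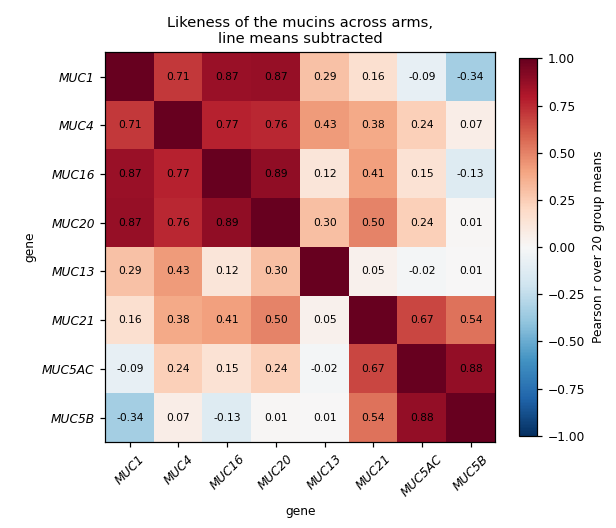
Pearson's r between the mucins over the 20 group means of log2(CPM + 1) with line means subtracted (colour and printed value). MUC1, MUC4, MUC16 and MUC20 form a block with r from 0.71 to 0.89 and MUC5AC pairs with MUC5B at 0.88.

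MUC1 and MUC16 moved together (r = 0.87), though each was slightly closer to MUC20, which had no stretch available. The stretches before the RefSeq starts (GRCh38.p14) of MUC1 and MUC16 are shown, as read 5′ to 3′ on the minus strand. Matches to a searched motif are in capitals. Both MUC16 starts in RefSeq lie upstream of the GENCODE span of the gene given here, so the 2 annotations disagree on where MUC16 begins. The TATA box was searched as TATAAA. The GC box was searched as GGGCGG. The AP-1 site was searched as TGANTCA. The FOX site was searched as TGTTTAC. The STAT site was searched as TTCNNNGAA. The ETS site was searched as CCGGAAG. Each was sought on both strands.
MUC1, chr1:155192917-155193165: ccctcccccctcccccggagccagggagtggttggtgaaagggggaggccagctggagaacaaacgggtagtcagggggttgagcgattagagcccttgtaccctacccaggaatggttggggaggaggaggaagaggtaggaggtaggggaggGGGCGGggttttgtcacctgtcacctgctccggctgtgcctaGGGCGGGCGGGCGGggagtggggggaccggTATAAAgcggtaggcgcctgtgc
MUC16, upstream start, chr19:9065752-9066001: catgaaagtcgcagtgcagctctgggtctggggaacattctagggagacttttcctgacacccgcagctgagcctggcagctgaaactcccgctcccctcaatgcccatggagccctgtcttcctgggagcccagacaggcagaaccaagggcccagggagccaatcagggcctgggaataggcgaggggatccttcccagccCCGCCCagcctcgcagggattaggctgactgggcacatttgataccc
MUC16, second start, chr19:9010410-9010659: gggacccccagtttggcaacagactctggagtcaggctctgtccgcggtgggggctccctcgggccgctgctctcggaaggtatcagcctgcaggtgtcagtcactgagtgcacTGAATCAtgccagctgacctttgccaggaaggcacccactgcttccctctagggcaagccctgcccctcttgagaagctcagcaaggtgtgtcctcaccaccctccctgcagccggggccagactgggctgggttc
The MUC1 stretch held a TATA box 24 bases before the start and 4 GC boxes, the first 96 bases before the start and the other three overlapping one another. The upstream MUC16 stretch held a GC box at -47, as its complement,, and the second held an AP-1 site at -136. Windows of this kind for all genes held a TATA box in 10.7%, a GC box in 42.6%, an AP-1 site in 6.57%, a FOX site in 2.98%, a STAT site in 6.57% and an ETS site in 8.52% of 35093 cases. These are matches of letters, and no motif searched was shared by the 3 stretches. Among the 8 genes, promoter stretches were available for 4, MUC1, MUC4, MUC13 and MUC16. The MUC4 stretch, which is not printed, held a GC box at -49 and a STAT site at -11. That of MUC13, also not printed, held an AP-1 site at -178.

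Several of the genes have another mucin gene as a neighbour. MUC20 (chr3:195720882-195741123, plus strand) and MUC4 (chr3:195746765-195812277, minus strand) end 5641 bases apart and point at each other, and both rose after acute osimertinib in PC9, H1975 and HCC2935, while in persisters of H1975 MUC4 was above DMSO (log2 2.25) and MUC20 was not (0.20). MUC5AC (chr11:1157953-1201138) and MUC5B (chr11:1223066-1262172) lie in a row on the plus strand, with MUC2 47441 bases before MUC5AC. MUC2, the gel-forming mucin of the gut, was tested in HCC2935 alone. Its DMSO libraries were at 2.38, 14.98 and 2.27 CPM, so replicate 2 set much of their mean. MUC2 fell to 0.395, 0.612 and 0.818 CPM after acute osimertinib (log2 -3.38, edgeR adjusted p = 0.00243). In persisters it was at 0.377, 0.467 and 0.471 CPM (log2 -3.87, edgeR adjusted p = 0.000865). An antisense gene, MUC5B-AS1, overlaps MUC5B, and whether the counting used strand is not given in the sources used here. Of the other neighbours, those of MUC1 and MUC13 are named after their values were seen. Beside MUC1 (chr1:155185824-155192916, minus strand), THBS3, 2671 bases away, rose after acute osimertinib in each line, by log2 1.69 (1.685) to 2.65 (2.645). TRIM46, 852 bases away on the other side of MUC1, passed then in PC9 alone (log2 1.22) and not in HCC827 (0.35), H1975 (0.66) or HCC2935 (0.30). Beside MUC13 (chr3:124905442-124953819), HEG1, 11890 bases away, rose in persisters of each line, by log2 1.68 to 4.30, where MUC13 itself in HCC827 did not differ from DMSO (log2 -0.06 ± 0.35). ITGB5, 4023 bases away on the other side of MUC13, passed in persisters of PC9 alone, where it fell (log2 -1.63). The remaining genes are MUC16 (chr19:8848844-8981342, minus strand) and MUC21 (chr6:30983718-30989903, plus strand).

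The counts of related genes that follow stand against shares of all genes called of 39% to 66.2% by line after acute osimertinib and 43.4% to 69.2% in persisters. Of 14 other mucin genes, few were expressed. Over the 4 lines, 33 tests gave 10 higher and 3 lower calls after acute osimertinib and 9 higher and 6 lower in persisters. MUC3A, a membrane mucin of the gut, rose at both times in the 3 lines where it was tested. In HCC2935 it went from 14.1, 19.1 and 9.64 CPM under DMSO to 27.8, 25.7 and 21.4 CPM after acute osimertinib and 55.0, 57.4 and 52.2 CPM in persisters (log2 1.96 ± 0.18, edgeR adjusted p = 2.47e-07), above DMSO in each library while MUC5AC and MUC5B of the same libraries fell. In HCC827 it went from 1.19, 1.12 and 2.18 CPM to 14.2, 11.2 and 13.4 CPM in persisters (log2 3.13 ± 0.30, edgeR adjusted p = 2.29e-06). OVGP1, the oviduct mucin, rose after acute osimertinib in HCC827, H1975 and HCC2935 by log2 1.30 to 1.79.

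The enzymes that build mucin O-glycans showed no common direction after acute osimertinib. In persisters of each line more of them were called lower than higher. Their 74 tests gave 16 higher and 16 lower calls after acute osimertinib and 15 higher and 32 lower in persisters, with a median log2 fold change in persisters of -0.10 in PC9, -0.27 in HCC827, -0.48 in H1975 and -0.66 in HCC2935, against 0.06, 0.03, 0.02 and 0.04 over all genes. GALNT3, which starts O-glycans, fell in persisters of HCC827 (log2 -2.94), H1975 (-2.68) and HCC2935 (-0.78) but not in PC9 (0.05, edgeR adjusted p = 0.696). GALNT5, of the same family, rose in persisters of PC9 (3.95) and H1975 (1.23) and fell in HCC827 (-1.19) and HCC2935 (-0.77). ST6GALNAC2, which caps O-glycans with sialic acid, rose after acute osimertinib in all 4 lines by log2 0.65 to 2.71.

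Regulators and products of goblet cells gave 13 higher and 7 lower calls of 40 after acute osimertinib and 11 higher and 12 lower in persisters. In HCC2935 persisters, where MUC5AC and MUC5B fell, 7 of the 13 genes tested were lower and 0 higher, where 52.8% of all genes passed in either direction. SPDEF, the transcription factor of goblet cell differentiation, was lower there by log2 -4.00 ± 0.31 (edgeR adjusted p = 4.85e-08), and in PC9 by -2.41 ± 0.48. FOXA2, another airway regulator, fell in H1975 persisters by log2 -6.92 ± 0.61 and did not differ in HCC2935 (-0.05 ± 0.17). FCGBP, a protein of mucus, rose in persisters of PC9 (3.64), H1975 (1.93) and HCC827 (1.12) and fell in HCC2935 (-2.21). Products of club and serous cells gave 14 higher and 1 lower calls of 21 after acute osimertinib and 8 higher and 3 lower in persisters. The antiprotease SLPI was higher after acute osimertinib in all 4 lines, by log2 0.80 to 1.48, and lower in HCC2935 persisters (-1.25).

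Partners and sheddases of membrane mucins gave 22 higher and 4 lower calls of 32 after acute osimertinib and 15 higher and 10 lower in persisters. The receptor ERBB3 rose after acute osimertinib in all 4 lines (log2 0.75 to 2.32) and lay above DMSO in PC9 persisters (1.36 (1.355)) and below it in HCC827 (-1.07), H1975 (-3.46) and HCC2935 (-0.88). MMP14, a protease that sheds MUC1, rose in persisters of PC9 (4.09), HCC2935 (3.16) and H1975 (1.64). The adhesion protein CTNNB1, which binds the MUC1 tail, fell after acute osimertinib in all 4 lines by log2 -0.67 to -0.45. Transcriptional outputs of ERK, the kinase downstream of EGFR, were lower in 38 of 40 tests after acute osimertinib, with none higher, and in 32 of 40 tests in persisters, with 2 higher. By line, 8 of 10 ERK outputs were lower in persisters of PC9 (median log2 fold change -2.53), 5 in HCC827 (-0.76), 9 in H1975 (-1.76) and 10 in HCC2935 (-2.32). After acute osimertinib these medians were -2.645, -1.47, -1.92 and -3.11 in the same order of lines. Whether the mucin levels followed the ERK outputs was not tested.

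**Figure D5:**
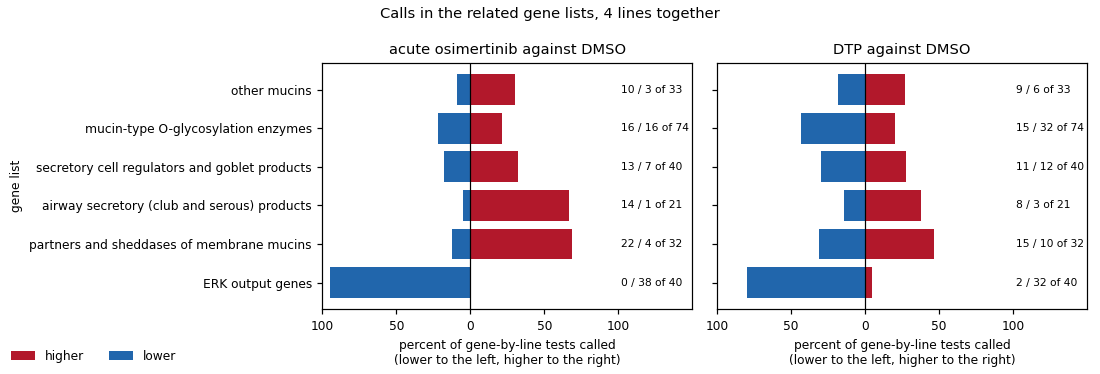
Share of tests (gene by line) that were called higher (red, to the right) or lower (blue, to the left) in 6 related gene lists, for acute osimertinib and DTP against DMSO, with the number higher, the number lower and the number tested printed at the right of each bar. ERK output genes were lower in 38 of 40 tests after acute osimertinib, partners and sheddases of membrane mucins were higher in 22 of 32, and O-glycosylation enzymes were split at 16 and 16 of 74.

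Markers of other cell types moved with the arms too. Those of ciliated cells gave 11 higher and 0 lower calls of 15 after acute osimertinib. Their summed mean was 7.446 CPM under DMSO and 36.7 CPM after acute osimertinib in PC9, while HCC2935 had 6.98 and 18.4 CPM. Those of alveolar cells gave 6 higher and 0 lower of 11 at that time, and in HCC2935 their sum, led by NAPSA, went from 202 to 338 CPM and was 17.9 CPM in persisters. Fibroblast markers gave 15 higher and 0 lower calls of 21 in persisters, led by COL1A1, with a sum over all libraries between 13.8 and 552 CPM. Squamous and basal markers gave 2 higher and 4 lower calls of 19 after acute osimertinib and 5 and 5 in persisters, leukocyte and endothelial markers 4 and 1 of 13 and 1 and 4, and epithelial markers 6 and 7 of 20 and 2 and 14. The part of any of these in the mucin levels was not tested.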

How the data were processed

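Poly-A RNA from 60 libraries was analysed. The deposited estimated counts per gene and the deposited log2 TPM (offset 0.01) were made by the authors, whose processing notes name HISAT2 2.1.0, Salmon 0.8.2 and hg38 without giving roles. The step that made the estimated counts is not given in the sources used here. Of the values, 83.92% had a fraction, and counts were rounded to whole numbers. Library totals were 17.7 to 49.1 M.

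Arms were compared within a line over its 15 libraries with edgeR 4.0.16 (TMM, filterByExpr, quasi-likelihood test, R 4.3.3), and lines were compared in a fit of 60 libraries. P-values were adjusted by Benjamini-Hochberg over all genes tested, with a threshold of 0.05. A standard error is the log2 fold change divided by the square root of its F. CPM values use TMM factors over 60 libraries, and TPM was recovered from the deposited log2 values. Floors for groups without counts cover counting error only, whereas standard errors and SDs include the spread between replicates. DESeq2 1.42.0, limma 3.58.1 on log2 TPM, RLE size factors, no filter, a replicate block, 2-arm fits, a 60-library fit, a threshold of 0.01 and leaving out each library were alternatives. The edgeR fit was tested on simulated data.

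The members and gene lists were chosen with earlier results of these data known. The mucins were all named, and other genes were the 2 highest and 2 lowest of each list by mean log2 fold change in DTP against DMSO, the 2 most like each mucin, the coding genes next to a mucin and EGFR, from which examples were picked after their values were seen. Replicates were numbered in the labels. Same-numbered libraries deviated together, with all 3 correlations over 0.1, in 3 of 24 comparisons: HCC827 short washout against DTP (0.40 to 0.69), H1975 short washout against DTP (0.25 to 0.60) and HCC2935 acute osimertinib against DMSO (0.13 to 0.36). Python 3.11.15, numpy 2.4.6, pandas 2.3.3 and matplotlib 3.10.9 were also used.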

Additional observations from a re-analysis of the deposited data

Results flagged for a closer look

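The effects below differed among the 4 lines by the F-test of the difference in the fit of 60 libraries, and each value is the highest minus the lowest log2 fold change among the lines. After acute osimertinib the gap was 4.64 for MUC1, 4.20 for MUC16, 4.01 for MUC20 and 1.85 for MUC4, with PC9 the highest line for each. In persisters it was 6.95 for MUC16, 5.74 for MUC1, 5.17 for MUC20 and 3.39 for MUC4, again with PC9 the highest. For the gel-forming mucins it was 5.64 for MUC5AC and 5.08 for MUC5B, with HCC2935 the lowest line and HCC827 the highest.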

How the results depend on the processing

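Of 198 comparisons of a mucin, 151 kept their side of the threshold under every alternative run and 47 changed side under at least 1. No called value turned direction, while values that were not called could turn. RLE size factors and no filter changed no call. DESeq2 changed 4 calls and limma 15. The count of calls for short washout against DTP was the one that moved by over 1.5 times: it was 2, then 4 with only the 2 arms compared, 5 with only these arms and the replicate block (added after seeing the data), 1 with all 60 libraries in 1 fit and 0 at an adjusted p of 0.01, and it ran from 1 to 2 with 1 library left out. With 1 library left out, calls ran from 17 to 20 for acute osimertinib and 10 to 13 for DTP against DMSO, 13 to 15 for DTP against acute osimertinib, 4 to 6 for long washout against DTP and 10 to 15 against DMSO. With the replicate block in the fits of 15 libraries these counts were 18, 12, 14, 6 and 13, and 2 for short washout. Over the line pairs the block gave 32 calls in place of 37, and leaving out a replicate number gave 34 to 35. Rounded counts, 3 libraries a group and few reads for MUC13, MUC21 and MUC5AC outside single lines limit what can be seen.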
